A study of Homo sapiens with 6 samples.

Results

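Versican, serglycin and 8 other secreted matrix genes were followed in THP-1 cells, a monocyte-like line from human leukaemia, after exposure to the chemokine CXCL10, an interferon-inducible ligand of the receptor CXCR3. The 10 genes (VCAN, SRGN, HSPG2, BGN, FN1, SPARC, TNC, EMILIN2, ECM1 and FBN1) were taken by name from the 57316 gene names in the count files, and all 10 were found. VCAN was selected on its higher counts with CXCL10 in this comparison, so its difference is given as a description without a test. The other 9 were taken for their function, with earlier results of these data known. Of the 10 genes, 8 passed the filter on low counts and were tested, and BGN and TNC were not.

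All cells had received the phorbol ester PMA at 100 ng/ml for 48 h, which gives THP-1 cells macrophage features. The control group was then kept for 24 h with control solution, and the CXCL10 group had recombinant human CXCL10 (100 ng/ml) for the same 24 h. Polyadenylated RNA was sequenced from 3 libraries per group, numbered 1, 3 and 4 in both. Whether the libraries came from separate cultures is not stated in the labels. The p-values therefore cover the spread between libraries, which may be only technical.

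Secreted matrix proteoglycans are core proteins that carry long sulfated sugar chains. Versican carries chondroitin sulfate and binds hyaluronan, and it is made by monocytes and macrophages as well as by connective tissue cells. Serglycin is the main proteoglycan inside the secretory granules of blood cells, where its chains hold proteases and chemokines. Fibronectin, tenascin-C, SPARC, the EMILINs, ECM1 and fibrillin-1 are glycoproteins that build the matrix or adjust how cells attach to it.

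Library depth ran from 34.8 to 41.0 M reads. Both mates of a fragment were counted, so 1 fragment usually gives 2 reads. Control replicate 4 stood apart, with a median Spearman correlation over genes of 0.981 with the other libraries, against 0.988 to 0.992 for the remaining libraries. Levels also followed gene length differently in each library. The slope of a library's log2 level per doubling of exon length, relative to the mean of all libraries, was lowest in control replicate 4 at -0.0652 and highest in CXCL10 replicate 3 at 0.0714. Among genes tested, the median log2 fold change was -0.18 in the quintile with the shortest exon length and 0.11 in the quintile with the longest. Of 12 macrophage markers 11 were tested, with summed levels of 4279 to 5117 CPM (counts per M reads, scaled between libraries) in controls and 4124 to 4477 CPM with CXCL10. The remaining one, CD68, had 0 to 5 reads, but 85.6% of its exon length is shared with other annotated genes and reads over more than 1 gene were left out. Of the tested markers MRC1 had only 34 to 90 reads and MARCO 15 to 58. The log2 fold change was above 0 for 7 tested markers and below 0 for 4, from -0.56 (TYROBP) to 0.45 (PTPRC), and 0 passed the test.

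The sequence before the start of 4 genes is printed because these are the gene with the largest difference (VCAN) and the 3 most abundant genes with a RefSeq promoter entry (EMILIN2, ECM1 and FN1). Letters come from the RefSeq promoter table for GRCh38.p14, run 5′ to 3′ on the gene's strand and stop where an exon of the gene begins in the files' annotation. Capitals mark the AP-1 letters TGANTCA and the cyclic AMP response element letters TGACGTCA, searched on both strands, and the TATA box letters TATAAN, searched on the gene's strand. AP-1 sites with the letters TGAGTCA are known as phorbol ester response elements, and the letters searched also take variants such as TGAATCA.
VCAN, chr5:83471494-83471617, plus strand: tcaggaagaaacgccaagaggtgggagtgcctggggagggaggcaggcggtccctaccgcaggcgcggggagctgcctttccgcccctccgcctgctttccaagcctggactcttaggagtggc
EMILIN2, chr18:2846756-2847005, plus strand: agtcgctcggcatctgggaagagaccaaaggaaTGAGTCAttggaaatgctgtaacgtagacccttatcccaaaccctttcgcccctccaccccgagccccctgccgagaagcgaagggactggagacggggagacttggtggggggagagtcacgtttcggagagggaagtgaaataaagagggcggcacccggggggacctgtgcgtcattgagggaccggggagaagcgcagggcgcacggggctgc
ECM1, chr1:150507859-150508061, plus strand: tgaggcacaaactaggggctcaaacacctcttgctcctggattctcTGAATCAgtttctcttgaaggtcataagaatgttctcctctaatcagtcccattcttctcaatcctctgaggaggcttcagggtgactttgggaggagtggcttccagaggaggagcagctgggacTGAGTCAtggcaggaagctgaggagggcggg
FN1, chr2:215436074-215436318, minus strand: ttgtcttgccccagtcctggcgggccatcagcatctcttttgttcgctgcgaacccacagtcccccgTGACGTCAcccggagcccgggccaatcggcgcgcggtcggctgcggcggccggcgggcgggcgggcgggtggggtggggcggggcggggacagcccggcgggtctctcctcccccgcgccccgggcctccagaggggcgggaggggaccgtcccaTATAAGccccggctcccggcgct

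Over the 250 bases before the RefSeq start, EMILIN2 held 1 AP-1 match and ECM1 held 2, and the other 7 genes with an entry held none. Of all 35116 promoter windows of this length, 6.57% held such a match. FN1 held the only match to the cyclic AMP response element, whose last base lies 176 bases before the start, and 1.65% of all windows held one. TATA box letters were found in VCAN, FN1, TNC and ECM1, ending 21, 23, 22 and 25 bases before the start, against 13.6% of all windows. The TATA matches in VCAN and ECM1 lie inside an annotated exon of the files and are outside the printed stretches. These matches describe letters and were not tested as binding sites.

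Per exon length, the 10 genes fell into an abundant and a scarce set, separated by a wide gap. SRGN was the highest, at 170 ± 23.9 RPKM (reads per kilobase of exon and per M reads) in controls and 159 ± 17.5 with CXCL10 (mean ± SD, n = 3 each). ECM1 followed with 83.3 ± 6.13 and 82.98 ± 5.58, EMILIN2 with 64.8 ± 2.74 and 69.4 ± 4.47, and FN1 with 40.6 ± 2.43 and 41.7 ± 4.98. These 4 genes did not overlap with each other in any library on this scale. VCAN lay below them at 0.900 ± 0.0616 in controls and 1.51 ± 0.345 with CXCL10, and its lowest library was above the highest library of SPARC (0.860 against 0.502). SPARC, FBN1 and HSPG2 came next, with means over all libraries of 0.400, 0.248 and 0.218, and each overlapped its neighbour. TNC and BGN were at the bottom, and they overlapped with each other. The exon length of a gene joins all its annotated exons, so a gene with many alternative exons appears lower on this scale than it would by 1 isoform.

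**Figure D1:**
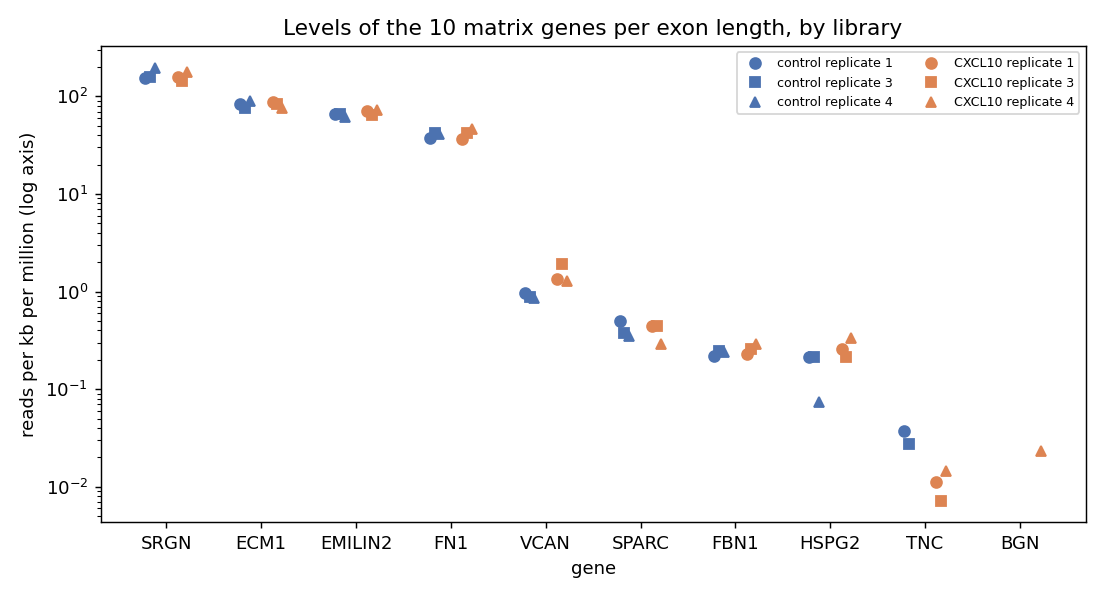
RPKM on a log axis for the 10 genes in each of 6 libraries, with colour for the group and marker shape for the replicate number. SRGN, ECM1, EMILIN2 and FN1 lie above 36 in all libraries and the other 6 genes below 2. Libraries at 0 (control replicate 4 for TNC, and 5 libraries for BGN) are not drawn.

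As a share of all reads the 10 genes took 0.156% to 0.182% per library. FN1, the longest abundant transcript, gave 39.0% to 44.8% of the reads of the 10 genes, EMILIN2 23.8% to 28.7%, ECM1 14.6% to 18.5% and SRGN 10.6% to 14.4%. VCAN gave 0.753% to 1.70%.

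VCAN, the versican gene (chromosome 5, 83471618 to 83582303, hg38), was higher in every CXCL10 library than in every control. Control replicates 1, 3 and 4 had 14.3, 12.8 and 12.6 CPM (551, 483 and 422 reads), and CXCL10 replicates 1, 3 and 4 had 19.8, 27.9 and 18.7 CPM (733, 1204 and 665 reads). The groups did not overlap, and CXCL10 replicate 3 lay well above the other 2 libraries of its group. The mean CPM was 1.67-fold higher with CXCL10, and the log2 fold change was 0.74 ± 0.18 (SE). It was 0.55 without CXCL10 replicate 3 and 0.71 without control replicate 4, the libraries with the highest and the lowest VCAN level. They are also the libraries with the highest and lowest slope over gene length, and VCAN is long (14678 bases of exon, where 97.2% of tested genes are no longer). With the length trend of each library removed the log2 fold change was 0.60, and with control replicate 4 left out as well it was 0.59. Counts were per gene, so the versican isoforms, which differ in how much of the chondroitin sulfate region they hold, cannot be told apart. Of the VCAN exon length 3.09% is shared with the antisense gene VCAN-AS1. In bulk RNA, more cells that express a gene and more RNA per cell cannot be told apart.

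The other long genes among the members differed from each other. FN1, FBN1 and HSPG2, like VCAN, lie in the longest quintile of tested genes, with 17216, 16057 and 18118 bases of exon. Their log2 fold changes were 0.04 ± 0.13, 0.13 ± 0.20 and 0.67 ± 0.33 (SE). All of them had overlapping groups. In the same order their 95% intervals by edgeR ran from -0.24 to 0.32, from -0.30 to 0.57 and from -0.03 to 1.37. The difference between VCAN and these genes was not tested, since VCAN was chosen for its value.

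None of the other members passed the test over all genes. In the quasi-likelihood test of edgeR, adjusted by Benjamini-Hochberg, 0 of the 7 other tested members were called, and 0% of the 16531 genes tested were called. At an unadjusted p under 0.05 edgeR counted 0 of these 7, against 7.14% of all genes (2.5% higher and 4.65% lower). The same 0 of 7 came from DESeq2 and from limma-voom, which each counted 1 of them, HSPG2, at an unadjusted p under 0.05. None of the 7 separated the groups without overlap, where 5.76% of all genes had every CXCL10 library above every control and 6.48% had every one below. Of the 7, 4 had a log2 fold change above 0 and 3 below, with a median of 0.04, and over all genes tested 54% were above 0 with a median of 0.02.

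**Figure D2:**
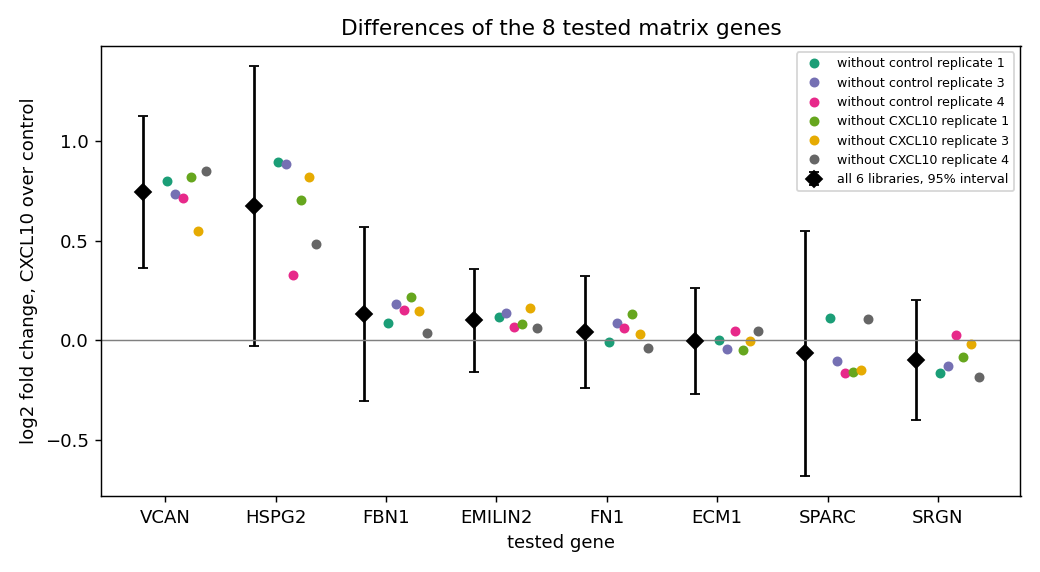
Log2 fold change of CXCL10 over control for the 8 tested genes. Diamonds with bars are the fit to all 6 libraries with its 95% interval, and coloured points are the fits with 1 library left out. VCAN lies between 0.55 and 0.85 in the left-out fits, while HSPG2 falls to 0.33 without control replicate 4 and 4 of the other genes lie on both sides of 0. Because VCAN was chosen for its rise in these same libraries, its interval and left-out fits are descriptions and lend its rise no support.

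Among the proteoglycans, SRGN, the granule proteoglycan serglycin (chromosome 10, 69088103 to 69104805), was abundant and similar in both groups. It measured 187, 193 and 240 CPM in control replicates 1, 3 and 4 and 190, 174 and 216 CPM in CXCL10 replicates 1, 3 and 4. Replicate 4 was the highest library of each group, and the groups overlapped. The log2 fold change was -0.10 ± 0.14 (SE), with a 95% interval from -0.40 to 0.20 (adjusted p = 0.896 by edgeR). Without control replicate 4 it was 0.028, and with the length trend removed it was 0.020. SRGN is the shortest of the 10 genes, with 1217 bases of exon.

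HSPG2, the gene of the basement membrane proteoglycan perlecan (chromosome 1, 21822244 to 21937310), had the second largest difference, from few reads. Control replicates 1, 3 and 4 had 3.91, 3.84 and 1.35 CPM (151, 145 and 45 reads), and CXCL10 replicates 1, 3 and 4 had 4.64, 3.87 and 6.06 CPM (172, 167 and 216 reads). Control replicate 4 was far below the other 5 libraries, and CXCL10 replicate 3 was below control replicate 1. The log2 fold change was 0.67 ± 0.33 (SE), with a 95% interval from -0.03 to 1.37 (adjusted p = 0.702 by edgeR), and 0.33 without control replicate 4. It was 0.48 without CXCL10 replicate 4. Of its exon length 11.7% is shared with LDLRAD2.

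BGN, the gene of the small leucine-rich proteoglycan biglycan (chromosome X, 153494980 to 153509546), had 2 reads in CXCL10 replicate 4 and 0 reads in the other 5 libraries. A count of 0 allows up to 0.146 to 0.173 CPM per library, taking 3 fragments or 6 reads as the limit, for counting error only. No fold is given.

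FN1, the fibronectin gene (chromosome 2, 215360440 to 215436073), gave the most reads of the 10 genes. Fibronectin is a large adhesive glycoprotein that integrins bind through an RGD motif. Control replicates 1, 3 and 4 measured 650.2, 727 and 718 CPM, and CXCL10 replicates 1, 3 and 4 measured 625, 735 and 794 CPM. Both the lowest and the highest library were in the CXCL10 group. The adjusted p was 0.959 by edgeR, and without control replicate 1 or CXCL10 replicate 4 the log2 fold change was just below 0, at -0.0088 and -0.038.

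EMILIN2, an elastin interface glycoprotein of the matrix (chromosome 18, 2847006 to 2916003), varied little. Control replicates 1, 3 and 4 measured 428, 430.0 and 399 CPM, and CXCL10 replicates 1, 3 and 4 measured 459.5, 416 and 471 CPM. CXCL10 replicates 1 and 4 lay above all controls and replicate 3 lay between them. The log2 fold change was 0.10 ± 0.12 (SE), with a 95% interval from -0.16 to 0.36 (adjusted p = 0.871 by edgeR).

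ECM1, which encodes a secreted glycoprotein of skin and other matrices (chromosome 1, 150508062 to 150513789), had the smallest difference of the 8 tested genes. Control replicates 1, 3 and 4 measured 282, 258 and 299 CPM, and CXCL10 replicates 1, 3 and 4 measured 296, 282 and 259 CPM. The groups covered nearly the same range. The log2 fold change was -0.0059 ± 0.12 (SE), and the 95% interval from -0.27 to 0.26 held 0 near its middle (adjusted p = 0.997 by edgeR).

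The scarce glycoproteins gave wide intervals. SPARC, a calcium-binding protein that loosens cell contact with the matrix (chromosome 5, 151661096 to 151686975), measured 2.33, 1.75 and 1.61 CPM in control replicates 1, 3 and 4 and 2.05, 2.04 and 1.35 CPM in CXCL10 replicates 1, 3 and 4. Its groups overlapped, and the log2 fold change was -0.07 ± 0.29 (SE) with a 95% interval from -0.68 to 0.55 (adjusted p = 0.973 by edgeR). FBN1, the gene of the microfibril protein fibrillin-1 (chromosome 15, 48408306 to 48645849), measured 3.55, 3.97 and 3.89 CPM in control replicates 1, 3 and 4 and 3.67, 4.13 and 4.71 CPM in CXCL10 replicates 1, 3 and 4. CXCL10 replicates 3 and 4 lay above all controls and replicate 1 did not (adjusted p = 0.902 by edgeR). TNC, the tenascin-C gene (chromosome 9, 115019575 to 115118257), had 14, 10 and 0 reads in control replicates 1, 3 and 4 and 4, 3 and 5 reads in CXCL10 replicates 1, 3 and 4. Of the 6 libraries, 4 lay at or under the limit of 6 reads, so no fold is given.

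**Figure D3:**
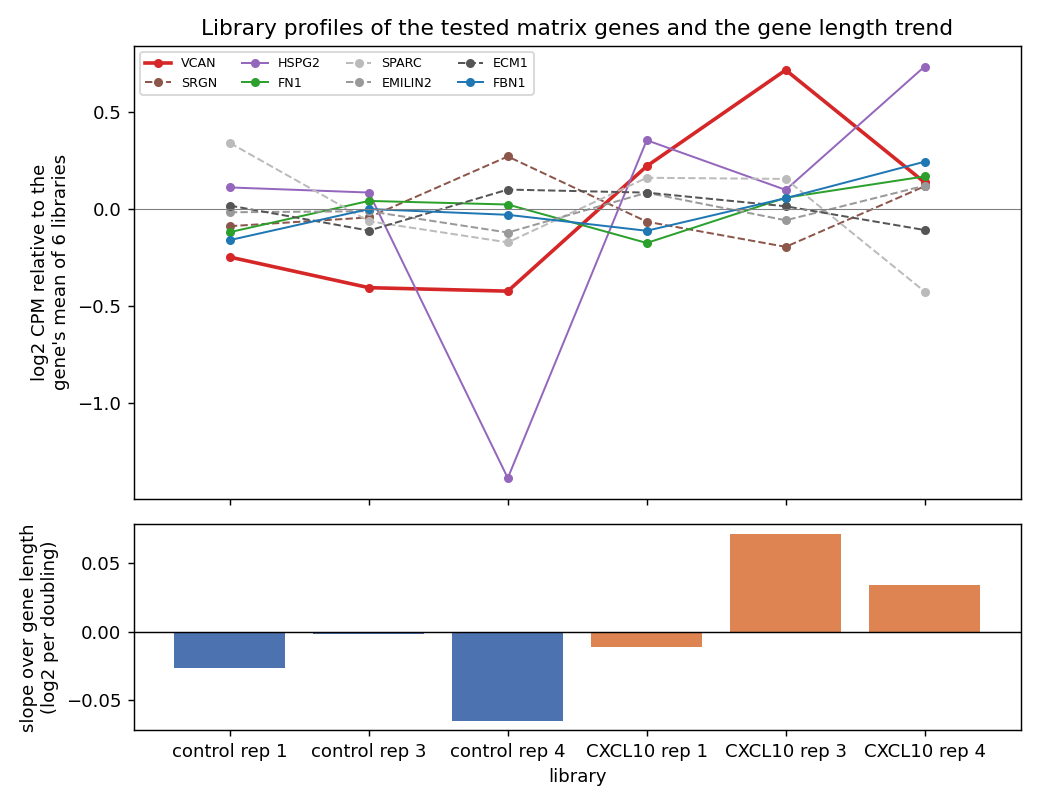
Upper panel, log2 CPM of the 8 tested genes in each library relative to the gene's mean of 6 libraries, with solid lines for the 4 genes in the longest quintile. Lower panel, each library's slope of log2 level over exon length. VCAN is highest at 0.72 in CXCL10 replicate 3, where the slope is highest, and HSPG2 falls to -1.39 in control replicate 4, where the slope is lowest. The other 6 genes stay within 0.43 of their mean. Of these, FN1 and FBN1 are also in the longest quintile. They are at 0.0589 and 0.0565 in CXCL10 replicate 3 and at 0.0238 and -0.0294 in control replicate 4. Whether the slope accounts for the levels of VCAN and HSPG2 was not tested.

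No other member followed VCAN closely across libraries. Likeness was measured as the root mean square difference between log2 CPM profiles, each centred on its mean over the 6 libraries, so that 0 means identical profiles. The members lay 0.385 (FBN1) to 0.587 (HSPG2) from VCAN. The 5 closest of 8565 genes with a mean of at least 10 CPM over the 6 libraries were APC, a negative regulator of Wnt signalling, at 0.119, HACE1, a ubiquitin ligase, at 0.128, JMJD1C, a member of the Jumonji family, at 0.132, NCOA2, a coactivator of nuclear receptors, at 0.148, and ANKMY2 at 0.169. APC measured 18.9 CPM in CXCL10 replicate 3 against 13.1 and 12.4 CPM in CXCL10 replicates 1 and 4. Their exon lengths were 12440, 9237, 11162, 10009 and 2851 bases in the order above, so 4 of the 5 lie in the longest quintile.

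The partners of versican were described next. In hyaluronan synthesis, binding and breakdown, 11 of 20 listed genes were tested, 0 passed in either direction and 4 had a log2 fold change above 0, with a median of -0.07 against 0.02 over all genes tested. The median of these hyaluronan genes was 0.051 without control replicate 4 and 0.0084 by library size only. CD44, the hyaluronan receptor, was the most abundant per length, at 387 ± 26.0 CPM in controls against 369 ± 1.32 CPM after CXCL10. CEMIP2, a cell surface hyaluronidase, had 22.1 ± 2.34 and 27.95 ± 6.88 CPM, and HAS3, a hyaluronan synthase, 0.868 ± 0.273 and 1.33 ± 0.311 CPM, both with overlapping groups. Of the ADAMTS proteases that can cleave versican, 5 of 7 were tested and 0 passed, with a median of -0.018, which was 0.091 without CXCL10 replicate 3, -0.19 without CXCL10 replicate 4, 0.0069 without control replicate 1 and 0.058 by library size only. ADAMTS1 was lower in every CXCL10 library than in every control, by a narrow margin, with 58.7, 62.4 and 54.5 CPM in control replicates 1, 3 and 4 and 41.9, 51.4 and 53.6 CPM in CXCL10 replicates 1, 3 and 4. This gave a log2 fold change of -0.26 ± 0.14 (SE) with an adjusted p of 0.712 by edgeR. Scaled by library total alone its groups overlapped, with 50.6 CPM in control replicate 4 and 54.9 CPM in CXCL10 replicate 4. ADAMTS15 had 35.3 ± 5.12 and 38.7 ± 2.15 CPM, and ADAMTS4 1.15 ± 0.374 and 1.08 ± 0.260 CPM.

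The enzymes that build the sugar chains were mostly expressed and showed no common direction. For chondroitin sulfate, 25 of 26 listed genes were tested, 14 lay above 0 and 11 below, 0 passed and the median was 0.02. B3GAT3, which completes the linker that joins the chain to the core protein, had 93.0 ± 6.96 CPM in controls and 77.5 ± 9.66 CPM with CXCL10. B3GALT6, which adds the galactose before it, had 71.4 ± 5.06 and 56.7 ± 8.49 CPM, a log2 fold change of -0.33 ± 0.14 (SE, adjusted p = 0.683 by edgeR). CHST7, a chondroitin sulfotransferase, had 13.4 ± 1.42 and 10.3 ± 2.08 CPM. For heparan sulfate, the chain of perlecan, 16 of 21 genes were tested, 10 lay above 0 and 6 below, 0 passed and the median was 0.06. HS2ST1, a sulfotransferase and the most abundant of them per length, had 107 ± 7.95 and 112 ± 28.6 CPM. The 3-O-sulfotransferase genes HS3ST3A1 and HS3ST3B1 had 17.8 ± 2.04 and 14.2 ± 2.10 CPM, and 49.97 ± 2.19 and 40.8 ± 7.47 CPM, with log2 fold changes of -0.33 ± 0.17 and -0.29 ± 0.15 (SE, adjusted p = 0.702 by edgeR for both). With the length trend removed the medians were -0.066 for chondroitin and -0.046 for heparan sulfate. Among the fits that left out 1 library, the chondroitin median was lowest without control replicate 1, at 0.0020, and highest without CXCL10 replicate 1, at 0.080. The heparan sulfate median was 0.015 when control replicate 1 was dropped and 0.093 when control replicate 3 was dropped.

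Among other secreted proteoglycans 6 of 19 were tested, 5 lay above 0, 0 passed and the median was 0.09. Leaving out control replicates 1, 3 and 4 in turn gave 0.15, 0.29 and 0.025, and leaving out CXCL10 replicate 1 gave 0.26. Of the 19, 6 had no read in any library. AGRN, the gene of the heparan sulfate proteoglycan agrin, had 152 ± 25.1 CPM in controls against 169 ± 21.2 CPM after CXCL10, and COL18A1, the gene of a basement membrane collagen with heparan sulfate chains, had 8.04 ± 1.49 and 10.2 ± 2.10 CPM. Control replicate 4 was the lowest library for both, as for HSPG2. OGN, a small leucine-rich proteoglycan gene, stayed under 0.5 CPM in all 6 libraries.

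Other matrix glycoproteins had 24 of 37 genes tested, of which 19 lay above 0 and 5 below, with a median of 0.17 and 0 past the test. Every CXCL10 library was above every control for 4 of the 24, against 5.76% of all genes tested. With the length trend removed 16 lay above 0 and 8 below, with a median of 0.096. TGFBI, which encodes an adhesive matrix protein induced by TGF-beta, was the most abundant per length, at 587 ± 37.8 CPM in controls against 654 ± 54.3 CPM after CXCL10. The log2 difference of TGFBI was 0.16 ± 0.13 (SE, adjusted p = 0.801 by edgeR). VWF, the von Willebrand factor gene, had 1.86, 1.93 and 1.05 CPM in control replicates 1, 3 and 4 and 3.37, 2.04 and 2.66 CPM in CXCL10 replicates 1, 3 and 4. Its groups did not overlap, with a log2 difference of 0.73 ± 0.30 (SE, adjusted p = 0.683 by edgeR). LAMA3, a laminin chain gene, had 1.76 ± 0.391 and 2.58 ± 0.312 CPM. Control replicate 4 was the lowest library for VWF and LAMA3.

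Microfibril and elastic fibre genes had 15 of 24 tested, 9 above 0 and 6 below, with a median of 0.09 and 0 past the test. The median was 0.19 without control replicate 3, 0.023 without control replicate 4 and 0.047 without CXCL10 replicate 4. LOXL4, a lysyl oxidase gene, had 105 ± 28.6 CPM in controls and 94.98 ± 15.4 CPM with CXCL10. LTBP1, the gene of a latent TGF-beta binding protein, had 4.55 ± 1.25 and 6.14 ± 0.599 CPM without overlap (log2 fold change 0.43 ± 0.22, SE, adjusted p = 0.702 by edgeR). LOXL3, another lysyl oxidase gene, had 11.8 ± 3.03 and 15.2 ± 1.61 CPM.

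**Figure D4:**
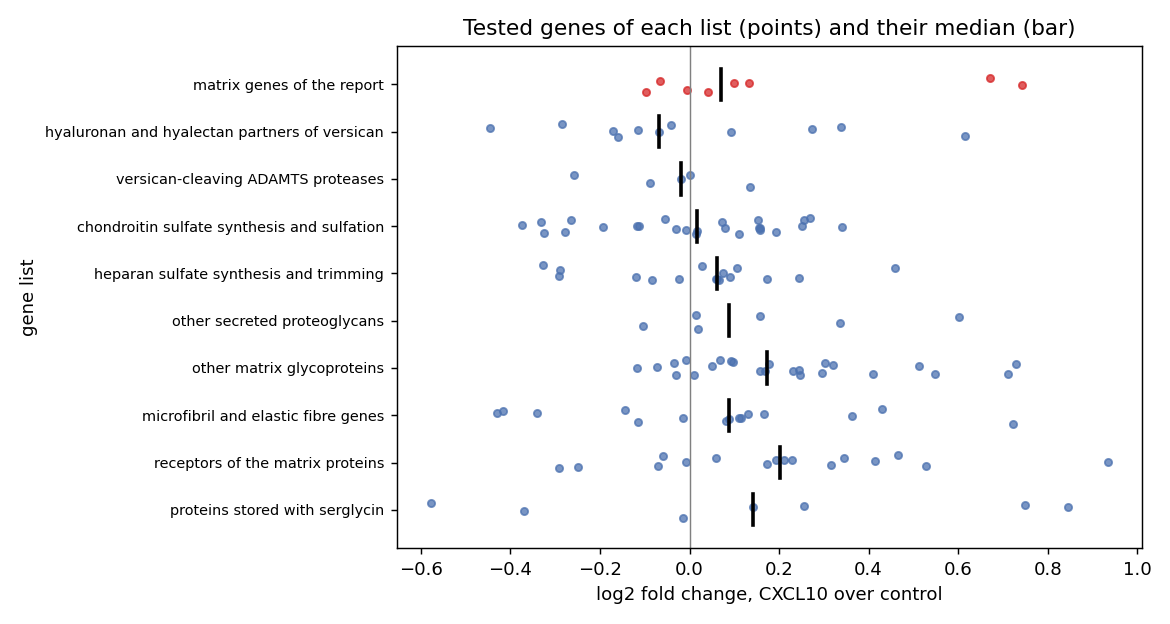
Log2 fold change of CXCL10 over control for the tested genes of 10 groups, 1 point per gene, with a bar at the median. The spread within each group is wider than the distance of its median from 0, and the medians run from -0.07 for hyaluronan genes to 0.20 for receptors.

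Receptors of these proteins had 16 of 18 genes tested, 11 above 0 and 5 below, with a median of 0.20 and 0 past the test. CD14, a co-receptor of TLR2 and TLR4 and also a macrophage marker, had 283 ± 67.9 CPM in controls and 238 ± 22.7 CPM with CXCL10. TLR4, a receptor that responds to biglycan and tenascin-C, had 31.6, 33.7 and 30.2 CPM in control replicates 1, 3 and 4 and 34.1, 65.2 and 32.5 CPM in CXCL10 replicates 1, 3 and 4. CXCL10 replicate 3 alone stood apart, the library that was also highest for VCAN, and the other 5 libraries lay close together. TLR6, which pairs with TLR2, a receptor that responds to versican, had 11.98 ± 0.595 and 15.2 ± 2.91 CPM. With the length trend removed the median of the receptor genes was 0.09, and without CXCL10 replicate 3 it was 0.11.

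Proteins stored with serglycin gave 7 tested genes of 10, 4 above 0 and 3 below, with a median of 0.14 and 0 past the test. That median had no stable sign. It was -0.19 over the 4 genes (LYZ, CCL3, ELANE and MMP9) left by a filter of 1 CPM in 3 libraries and 0.24 with the length trend removed. Left out in turn, control replicates 3 and 4 gave 0.092 and -0.065, and CXCL10 replicates 1, 3 and 4 gave -0.031, 0.39 and -0.048. MMP9, a gelatinase gene, was the most abundant per length, at 1143 ± 122 CPM in controls against 1131 ± 83.7 CPM after CXCL10. LYZ, the lysozyme gene, had 10.5, 10.3 and 6.13 CPM in control replicates 1, 3 and 4 and 15.2, 15.2 and 17.97 CPM in CXCL10 replicates 1, 3 and 4. Its groups did not overlap (log2 fold change 0.85 ± 0.20, SE, adjusted p = 0.683 by edgeR), and 34.0% of its exon length is shared with other genes. ELANE, the neutrophil elastase gene, had 3.85 ± 2.07 and 2.57 ± 0.503 CPM, with control replicate 4 the highest library. SRGN itself did not differ beyond the spread between libraries.

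Among 10 markers of fibroblasts, cells that produce matrix, LUM and POSTN had no read in any library and COL1A2 and COL3A1 had at most 2 reads, while COL1A1 had 48 to 86, FAP 39 to 71, PDGFRB 50 to 100 and PDGFRA 715 to 1300 reads. Of the 10, 4 were tested. Their summed level was 29.8 to 33.4 CPM in controls and 25.0 to 36.0 CPM with CXCL10, most of it from PDGFRA (26.4 ± 2.46 and 23.8 ± 5.68 CPM). Of 8 endothelial markers 3 were tested, with summed levels of 79.8 to 91.3 and 76.4 to 89.9 CPM, most of it from ROBO4 (84.4 ± 5.64 and 77.7 ± 6.52 CPM), while TEK had at most 2 reads. Epithelial markers summed to 0.348 to 1.11 CPM over all libraries and lymphocyte markers to 6.14 to 7.27 CPM, with EPCAM, CD2 and MS4A1 at 0.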

How the data were processed

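The deposited files hold raw read counts per gene, 1 file per library, which the authors counted using featureCounts 2.0.6 over exons of GENCODE 30 keyed by gene name, per the file headers. Trim Galore, STAR and Subread on hg38 are named in the submitters' processing notes, without versions. Pairs were not counted as 1, strand was not set, and reads over several genes or mapped to several places were left out, per the command line in the file headers. Strand can therefore not separate antisense genes. Totals were 34.8 to 41.0 M reads.

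The counts of 16531 genes went into edgeR 4.0.16, run in R 4.3.3 (filterByExpr, TMM factors, quasi-likelihood fit with group as the only term over 6 libraries, Benjamini-Hochberg adjustment over all genes, threshold 0.05). CPM used TMM-scaled library sizes. Errors are SD over 3 libraries or SE derived from the F statistic. The test was tested on simulated data with known changes, drawn from the gene means, their spread and the library sizes. No result given here rests on that simulation. DESeq2 1.42.0, limma-voom (limma 3.58.1), other scalings and filters, a replicate block, removal of the length trend (a spline with 5 degrees of freedom per library), halved counts and leaving out each library were alternatives. No pair of libraries held identical counts.

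Named are the 10 members, from each pathway list the gene with the highest level per length and the 2 others with the lowest p, and the 5 genes most like VCAN. A few further genes (CD68, the marker genes and the genes of overlapping exons) were named after their values were seen. The members and lists were chosen with earlier results of these data known. SRGN has no entry in the promoter table.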

Additional observations from a re-analysis of the deposited data

How the results depend on the processing

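VCAN, HSPG2 and EMILIN2 stayed above 0 in all 18 alternative settings, VCAN between 0.55 and 0.85, HSPG2 between 0.22 and 0.90 and EMILIN2 between 0.0093 and 0.18. VCAN was chosen for its rise in these same libraries, so its steady sign is a description and lends its rise no support. Without the low-count filter 137 genes passed edgeR's threshold (45 higher, 92 lower), where the edgeR fit with the filter called 0. The cause was not tested. Of the members, 1 was among the 137, VCAN, and since it was chosen for its rise this call lends it no support either. No pairing by replicate number was seen in the levels (correlations of same-numbered deviations 0.0261, 0.0185 and -0.0507), and not every library correlated best with its own number. Whether same-numbered libraries were matched is not stated in the labels, and these correlations cannot show that they were not. With the replicate block edgeR called 0 genes, with 1323 against 1181 at an unadjusted p under 0.05, and with the length trend removed and the replicate block 5 genes, none of them a member. Scaled by library size only, the split at an unadjusted p under 0.05 was 744 higher and 407 lower, against 413 and 768. Each fit that left out 1 library called 0 genes, but the number at an unadjusted p under 0.05 ran from 626 without CXCL10 replicate 3 and 649 without control replicate 4 or CXCL10 replicate 4 to 2103 without CXCL10 replicate 1. At that p HSPG2 counted among the higher genes without control replicate 1 or 3. It also did so by edgeR with the replicate block, with the block and the length trend removed, and without the low-count filter. TNC, too low for the full fit, counted among the lower genes without control replicate 4. That control had 0 TNC reads, so TNC passed the filter there only by the 14 and 10 reads of the other controls. No conclusion is drawn from it. Members near 0 changed sign. By library size only SPARC was 0.010 and ECM1 0.075. With the length trend removed SRGN was 0.020, FN1 -0.099 and FBN1 -0.0035, with the replicate block as well 0.019, -0.10 and -0.0096, and without control replicate 4 as well SRGN was 0.092, FN1 -0.054 and ECM1 0.069. Leaving out 1 library gave ranges of -0.18 to 0.028 for SRGN, -0.038 to 0.13 for FN1, -0.16 to 0.11 for SPARC and -0.051 to 0.048 for ECM1. Among list medians, 141 of 162 values moved by less than the spread between libraries. With the length trend removed the medians of chondroitin sulfate, heparan sulfate, other proteoglycan and microfibril genes fell below 0 (-0.066, -0.046, -0.0019 and -0.0055). Depth limits BGN and TNC, which had at most 2 and 14 reads.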
